A study of Populus davidiana with 6 samples.

Results

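In aspen leaves the assembly of the sequencing reads produced loci that hold no annotated transcript and yet lie over the span of an annotated gene. A locus was counted here when every transcript of its gene record was marked as assembled rather than known, when it spanned at least 200 bp, and when its span overlapped by at least 1 bp the span of a gene record with a known transcript. Of 40537 loci in the files, 559 met these conditions: 392 lay on the strand opposite to the overlapping gene, 68 on the same strand, and 99 had no strand assigned. The overlapping known gene is called the host below. Where several known genes overlapped, the host was the one with the largest overlap. Another 885 loci without a known transcript and of at least 200 bp overlapped no known gene.

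The 6 libraries came from leaves of Populus davidiana, an aspen, of the cultivar Seogwang9, which is labelled tolerant to drought. All plants were seedlings about 6 weeks old, grown by internode culture on MS medium with sucrose, Gelrite and naphthalene acetic acid. In the air-dried group (3 libraries) plants were pulled up, rinsed and exposed to the air for some 10 minutes. The control group had 3 libraries as well. The labels do not say how the controls were handled, nor whether each library had its own plant. The p-values therefore reflect the spread among these libraries, part of which may be technical. The labelled tissue could not be checked against leaf markers because the files give no gene names, and loci are therefore given by their coordinates as deposited, on an assembly that no label or header names.

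Transcripts from the strand opposite to a gene are known in plants as natural antisense transcripts, and some of them change the level, splicing or chromatin state of the gene they overlap. Loci on the strand of a gene can be unannotated starts, ends, intronic transcripts or read-through of a neighbour. When reads carry no strand information, assemblers such as Cufflinks take the strand from splice junctions and leave a transcript without such a junction unstranded. No label or header says whether these libraries kept strand information. Reads of a locus and of its host over shared sequence can therefore not be told apart with certainty, and in bulk leaf RNA a change in the number of cells of a type and a change of RNA per cell cannot be told apart.

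The values were FPKM, a fragment count scaled by transcript length and by the mapped fragments of the library, and that of a locus is the sum over its transcripts. The number of reads per library is unknown, so no counting interval can be given. Earlier results of these data had shown that the libraries fall into a pair of sets that cross the groups: set A (air-dried 1, control 1 and control 2) and set B (air-dried 2, air-dried 3 and control 3). Results below are therefore also given with the set as a term in the model. The summed FPKM of the 559 loci made up 8.45%, 4.24% and 4.10% of the total in the air-dried libraries and 7.53%, 2.92% and 2.51% in the controls. Much of that sum was a locus on chromosome 1, which alone held between 40.4% and 77.0% of it.

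Opposite-strand loci had a median span of 1939.5 bp (quartiles 730.5 and 10857 bp), and 215 of the 392 lay wholly inside the host span. Of the 392, 100 (25.5%) spanned at least 10000 bp and 15 spanned under 300 bp. A further 60 crossed the start of the host, 78 crossed its end and 39 covered it. In 275 of them an assembled transcript carried the letter x at the end of its accession, the letter with which the Cufflinks tools mark exonic overlap with a reference transcript on the other strand. The accession of 205 loci was built from the accession of the host itself. The letter o, which marks other exonic overlap, was found in 60 loci and the letter s in 7, and 51 had no letter. Of the 392 loci, 341 overlapped the span of a known transcript of any overlapping gene, on either strand. Another known gene on their own strand was overlapped by 68. The letter x thus marked most of the class as opposite a known transcript, with exceptions. The strand defines the class, and the overlap with known transcripts was not split by strand.

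Same-strand loci were longer, with a median span of 7222 bp, and 32 of 68 spanned at least 10000 bp. Inside the host lay 40 of them, 12 covered it, 6 crossed its start and 10 crossed its end. The letter o was found in 35 and the letter x in 9, and 37 overlapped more than 1 known gene, up to 19. Spans include introns, and the exon structure is not in the files.

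Unstranded loci were the shortest, with a median span of 354 bp and a longest span of 1310 bp, and each had 1 transcript. All 99 lay wholly inside the host span, but 98 of them overlapped no known transcript of that gene. They lay over the part of the gene record that came from assembled transcripts or between its known transcripts. Over all 559 loci this held for 174. For these loci the description as overlapping a known gene rests on the assembled extent of the gene, not on its annotated transcripts.

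Several loci could share a host. The 559 loci had 454 hosts, of which 62 held more than 1 locus and together 167 loci. A minus-strand host on chromosome 11 (1215932 to 1470665) held 11 loci, of which 3 were opposite-strand, 3 same-strand and 5 unstranded. Its record spans 254734 bp with 2 known transcripts, and it was listed at 0 FPKM in all 6 libraries. The mean levels of its 11 loci ranged from 0 to 20.9 FPKM. A host on chromosome 17 (1581731 to 1608339) held 5 opposite-strand loci and 1 unstranded locus, with mean levels from 1.44 to 2307 FPKM, while the host itself averaged 7.10 FPKM. Hosts had more transcripts than known genes in general, with a median of 3 against 1, and longer spans, with a median of 4818 bp against 2367 bp. A longer record can overlap more loci, and the largest overlap chose the host, so the selection itself favours long records. Its part in these medians was not tested. Loci with 1 host are not independent of each other.

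The median of the mean level over 6 libraries was 4.40 FPKM for opposite-strand loci, 7.26 FPKM for same-strand loci and 3.84 FPKM for unstranded loci, against 3.15 FPKM for unannotated loci that overlap no known gene and 1.90 FPKM for genes with a known transcript, of which 25.7% were listed at 0 in every library. An annotated gene is listed with or without reads, whereas an assembled locus is built from reads. Whether this accounts for the higher medians of the loci was not tested. A mean of 100 FPKM or more was reached by 10.7% of opposite-strand, 11.8% of same-strand and 2.02% of unstranded loci, against 3.66% of genes with a known transcript. Of the 559 loci, 403 had a value above 0 in every library and 55 were listed at 0 in every library (37 opposite-strand, 11 same-strand, 7 unstranded). A 0 may stand for an estimate that failed, so such values are written as listed at 0. A mean of at least 1 FPKM, the limit for testing, was met by 435 loci: 304 opposite-strand, 54 same-strand and 77 unstranded.

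Among these 435 loci the median levels of the groups overlapped. The median FPKM of the opposite-strand loci was 6.55, 5.27 and 6.63 in the air-dried libraries and 5.11, 7.02 and 6.18 in the controls. For same-strand loci the medians were 14.3, 7.94 and 10.3 FPKM in the air-dried libraries and 11.8, 14.6 and 10.2 FPKM in the controls. For unstranded loci they were 8.40, 2.72 and 4.55 FPKM in the air-dried libraries and 8.13, 9.37 and 4.06 FPKM in the controls. Tested genes with a known transcript had higher medians than opposite-strand and unstranded loci in every library, with 12.5, 12.1 and 12.8 FPKM in the air-dried libraries and 12.1, 12.6 and 12.6 FPKM in the controls. The unstranded medians were higher in the 3 libraries of set A than in the 3 of set B.

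**Figure D1:**
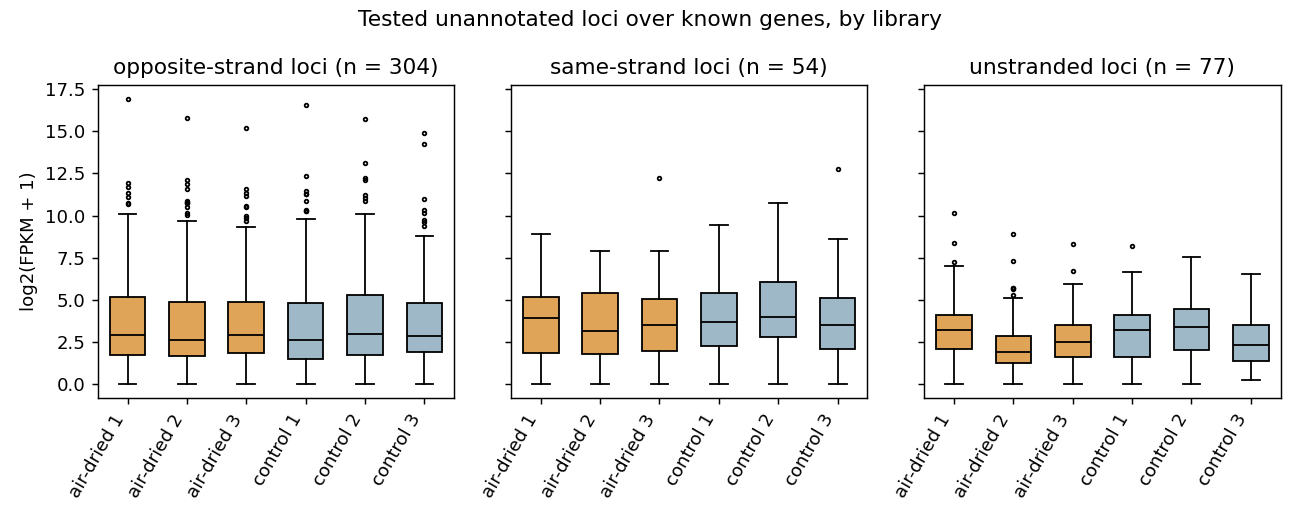
Level of the tested loci in each library as log2(FPKM + 1), in 1 panel per class with the number of loci in its title; boxes span the quartiles with the median as a line, whiskers reach 1.5 times the box, and points lie beyond. The unstranded medians are lowest in air-dried 2 (2.72 FPKM) and control 3 (4.06 FPKM), and the groups overlap in every class.

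The level of a locus told little about the level of its host. Over the 392 opposite-strand loci the rank correlation of mean FPKM between locus and host was 0.11, over the 68 same-strand loci 0.20 and over the 99 unstranded loci 0.22. These are descriptions over loci that share the same 6 libraries and, in part, the same host. The locus had the higher mean in 183 opposite-strand, 35 same-strand and 32 unstranded cases. Where locus and host both averaged at least 1 FPKM, the locus made up a median of 49.1% of the summed FPKM of the opposite-strand pairs, 52.2% of the same-strand pairs and 34.5% of the unstranded pairs. FPKM is scaled by transcript length, so these shares compare levels per length and not numbers of reads. The highest shares in each class were 99.95%, 99.8% and 99.7% for the opposite-strand loci on chromosome 6 (1535261 to 1546977), chromosome 3 (16172458 to 16172943) and chromosome 17 (1587921 to 1588122). The same-strand loci with the highest shares lay on chromosome 9 (6223156 to 6237565, 99.4%), chromosome 6 (26283274 to 26308961, 99.0%) and chromosome 19 (233284 to 234010, 97.8%). The last of these had 54.9, 61.1 and 28.7 FPKM in the air-dried libraries and 68.4, 56.7 and 26.04 FPKM in the controls. The unstranded loci with the highest shares lay on chromosome 1 (22652903 to 22653103, 99.3%), chromosome 11 (922949 to 923167, 97.8%) and chromosome 14 (848807 to 849012, 96.4%). The last had 36.2, 22.9 and 22.6 FPKM in the air-dried libraries and 50.3, 77.6 and 20.6 FPKM in the controls. The groups overlapped at both.

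**Figure D2:**
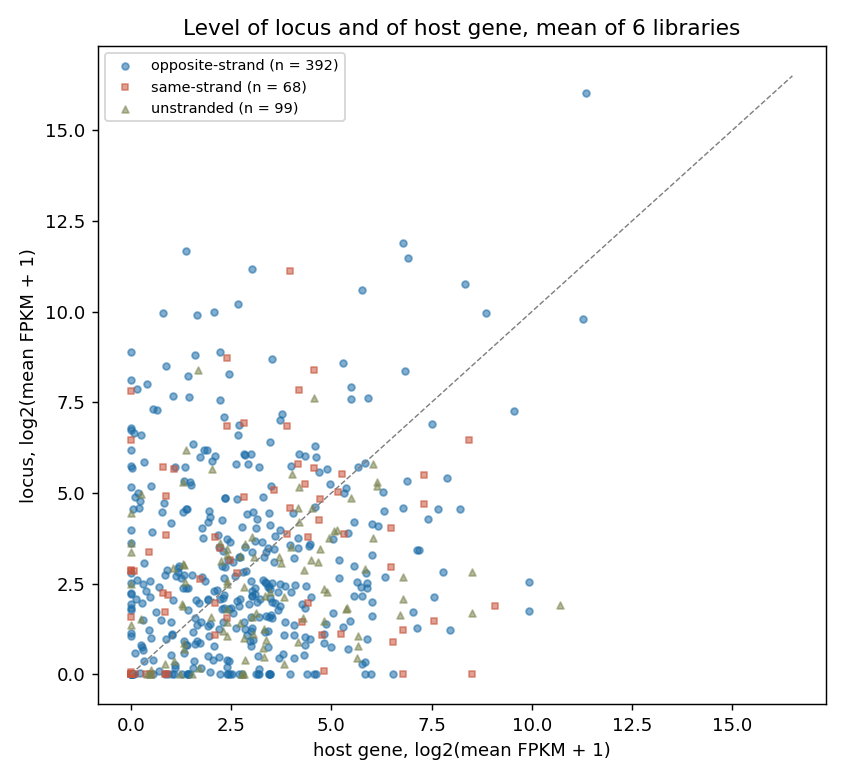
Mean level of each of the 559 loci (vertical axis) against that of its host (horizontal axis), both as log2(mean FPKM + 1) over 6 libraries, with colour and shape for the class and a dashed line of equal level. Points scatter widely on either side of the line, with 250 loci above it and 309 on or below it.

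The highest mean level among the 559 belonged to an opposite-strand locus of 822 bp on chromosome 1 (40733379 to 40734200, minus strand), which crosses the end of a plus-strand gene of 1068 bp. It had 123025, 55996 and 37118 FPKM in the air-dried libraries and 98279, 54647 and 30390.4 FPKM in the controls. Its host was also among the most abundant genes, with a mean of 3209 ± 482 FPKM in air-dried leaves and 1969 ± 319 FPKM in controls (SD, n = 3 each). The groups overlapped at the locus, with a log2 change of 0.22 (SE 0.77, limma adjusted p = 0.897), while they did not at the host, with a log2 change of 0.71 (limma adjusted p = 0.0852), which did not pass the threshold either.

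On chromosome 17 an opposite-strand locus of 7512 bp (4439583 to 4447094) inside its host had 3307, 3040.4 and 2542 FPKM in the air-dried libraries and 2809, 8908 and 2055 FPKM in the controls. A locus of 203 bp on chromosome 6 (1120341 to 1120543), crossing the start of its host, had 3983, 1486 and 832 FPKM in the air-dried libraries and 5253, 4892 and 772 FPKM in the controls. A locus of 202 bp on chromosome 17 (1587921 to 1588122) had 2610.1, 1762 and 1441 FPKM in the air-dried libraries and 2516, 4396 and 1119 FPKM in the controls. In each of these 3 loci the groups overlapped. In both short loci the 3 libraries of set A were higher than the 3 of set B.

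Among same-strand loci the highest mean came from a locus on chromosome 9 (6223156 to 6237565) that was listed at 0 in air-dried 1, air-dried 2 and control 1 and had 4812 FPKM in air-dried 3, 1688 FPKM in control 2 and 6949 FPKM in control 3. Next was a locus on chromosome 6 (26283274 to 26308961), with 487, 140 and 236 FPKM in the air-dried libraries and 691, 739 and 211 FPKM in the controls. A locus that covers its host on chromosome 6 (1809209 to 1822635) was also among the 5 most abundant, with 222, 203 and 194 FPKM in the air-dried libraries and 258, 276 and 195 FPKM in the controls. Its host was listed at 0 in all 6 libraries. The other 2 of these 5 averaged 334 FPKM (chromosome 7, 1354563 to 1355486) and 226 FPKM (chromosome 1, 44186447 to 44186726).

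Of the unstranded loci 2 reached a mean of 100 FPKM. The first is the 201 bp locus on chromosome 1 described further on. The second, on chromosome 7 (1355597 to 1355833), had 331, 156 and 105 FPKM in the air-dried libraries and 294, 185 and 92.6 FPKM in the controls. It lies inside the same host as the same-strand locus of chromosome 7 given above. The remaining 3 of the 5 most abundant averaged 71.2 FPKM (chromosome 11, 922949 to 923167), 54.5 FPKM (chromosome 6, 24455955 to 24456308) and 49.3 FPKM (chromosome 2, 9083280 to 9083499).

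The main comparison asked which loci differ in leaves after the short drying. Each was tested as log2(FPKM + 1) with limma across all 22356 loci of the series with a mean of at least 1 FPKM, with Benjamini-Hochberg adjustment over all of them and a threshold of 0.05. Of the 435 tested loci 8 rose and 10 fell in air-dried leaves, together 4.14%, where 13.0% of all tested loci were called. Opposite-strand loci gave 6 rises and 7 falls among 304, same-strand loci 1 and 1 among 54, and unstranded loci 1 and 2 among 77. The shares over all tested loci were 5.60% for rises and 7.44% for falls. At an unadjusted p under 0.05, 24 were higher and 34 lower, where 2816 and 3237 of all 22356 tested loci were. At the adjusted threshold the shares of the classes lay between 3.70% and 4.28%, and that of unannotated loci overlapping no known gene was 5.50%.

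The loci varied more between replicates than annotated genes did. The median SD between replicates of a group was 0.53 on the log2 scale for opposite-strand loci, 0.62 for same-strand loci and 0.69 for unstranded loci, against 0.14 for genes with a known transcript and 0.18 for the hosts. The air-dried values lay wholly above the control values in 29 of 435 loci and wholly below in 32, that is in 6.67% and 7.36%, where 15.9% and 16.8% of all tested loci did so (32.7% in either direction). Of the 364 tested hosts 16 rose and 27 fell, together 11.8%. The median log2 change was -0.02 for opposite-strand, -0.12 for same-strand and -0.17 for unstranded loci, against 0.0080 for all tested loci. Whether the larger spread between replicates accounts for the lower share of calls was not tested.

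All 18 called loci consisted of 1 transcript, and in each the 3 air-dried values lay on 1 side of the 3 control values. Of these 18, 9 lay inside the host and 11 had an accession with the letter x. These features were common among all 559 loci, of which 73 had more than 1 transcript. Of the 559, 354 lay inside the host and 284 had the letter x. Whether the called loci differ from the others in these features was not tested. With the library set as a term 16 of the 18 called loci were also called. The direction was the same within each set in 18 of 18, which follows from groups that do not overlap. When 1 library was left out, 9, 10 and 10 of the 18 were still called without air-dried 1, 2 and 3, and 7, 11 and 12 without control 1, 2 and 3. Of the 18, 7 were called whichever library was left out: those on chromosomes 17, 14 and 3, on scaffold 46, on chromosome 15 (6085349 to 6086352) and the unstranded ones on chromosomes 1 and 8.

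**Figure D3:**
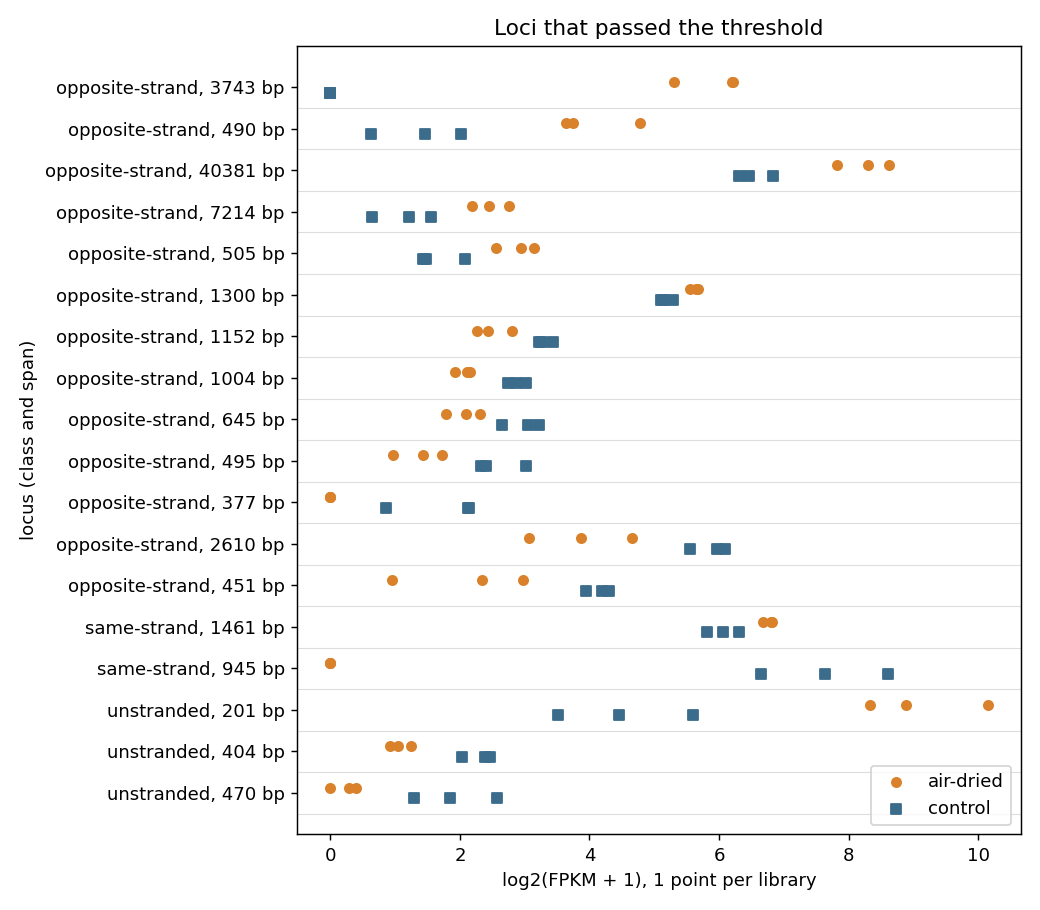
The 18 loci that passed the threshold, 1 row each, labelled by class and span; points are single libraries as log2(FPKM + 1), with air-dried libraries as circles above control libraries as squares. In every row the air-dried and control points do not overlap, with 8 loci higher and 10 lower in air-dried leaves.

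The rise that was largest among the opposite-strand loci was that of POPTR_0017s01120.r1, 3743 bp on the plus strand of chromosome 17 (798970 to 802712). It had 72.5, 73.3 and 38.3 FPKM in the air-dried libraries and was listed at 0 in all 3 controls, so no fold is given. It overlaps 3741 of the 4511 bp of its host (798972 to 803482, minus strand), which was near 0 throughout, between 0 and 0.373 FPKM in the air-dried libraries and between 0 and 0.150 FPKM in the controls. The locus was thus present where its host was hardly measured. Its limma adjusted p was 0.000181 and, once the set entered the model, 0.000590.

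POPTR_0014s09190.r1, 490 bp inside a single-transcript host on chromosome 14 (6826874 to 6827363, plus strand), had 26.6, 11.5 and 12.5 FPKM in the air-dried libraries and 0.549, 3.05 and 1.74 FPKM in the controls. Its log2 change was 2.69 (SE 0.45, limma adjusted p = 0.0140). The host (6825714 to 6828375, minus strand) rose as well, to 13.9 ± 1.48 FPKM in air-dried leaves, against 4.68 ± 0.565 FPKM in controls (SD, n = 3 each), with a log2 change of 1.40 (limma adjusted p = 0.00120). Locus and host thus rose together, and the difference between their changes, 1.30, did not pass the threshold (limma adjusted p = 0.244).

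The locus on scaffold 46 (59146 to 99526, plus strand) spans 40381 bp inside a host of 149011 bp. It had 226, 314 and 392 FPKM in the air-dried libraries and 113, 86.8 and 77.8 FPKM in the controls, with a log2 change of 1.72 (SE 0.24, limma adjusted p = 0.00752). The host on the minus strand stayed near 1 FPKM, with 1.15 ± 0.325 FPKM in air-dried leaves and 0.999 ± 0.166 FPKM in controls (SD, n = 3 each). The locus overlaps 3 known genes, at least 1 of them on its own strand, and it is opposite-strand by its largest overlap.

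Smaller rises were found in 3 more opposite-strand loci. On scaffold 200 (2285 to 9498) the values were 5.78, 3.56 and 4.46 FPKM in the air-dried libraries and 1.33, 1.93 and 0.562 FPKM in the controls (log2 change 1.33, SE 0.27, limma adjusted p = 0.0263). On chromosome 9 (7614734 to 7615238) they were 7.81, 4.86 and 6.69 FPKM in the air-dried libraries and 1.68, 1.77 and 3.22 FPKM in the controls (log2 change 1.22, SE 0.23, limma adjusted p = 0.0223). On chromosome 15 (5721807 to 5723106) they were 50.3, 49.1 and 45.7 FPKM in the air-dried libraries and 33.4, 38.0 and 34.1 FPKM in the controls (log2 change 0.45, SE 0.080, limma adjusted p = 0.0180). The locus on chromosome 15, which falls outside the rule for named loci and is given because it completes the calls, followed its host closely. That host had 273 ± 4.61 FPKM in air-dried leaves and 198 ± 5.24 FPKM in controls (SD, n = 3 each), with a log2 change of 0.46 (limma adjusted p = 0.0134). The hosts of the other 2 did not pass the threshold (log2 changes 0.57 and 0.28).

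Falling opposite-strand loci were led by POPTR_0004s10010.r2, 451 bp inside its host on chromosome 4 (8548082 to 8548532, minus strand). It had 4.09, 0.942 and 6.87 FPKM in the air-dried libraries and 17.3, 18.6 and 14.4 FPKM in the controls, a log2 change of -2.05 (SE 0.50, limma adjusted p = 0.0472). The host fell too, to 1.94 ± 0.0196 FPKM in air-dried leaves, against 5.19 ± 0.0783 FPKM in controls (SD, n = 3 each), with a log2 change of -1.07 (limma adjusted p = 0.000815). The locus fell with its host, but its own adjusted p was the highest of the 18, and the call was not made with the set as a term (adjusted p = 0.0833).

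A locus of 2610 bp on scaffold 1606 (1370 to 3979, plus strand) covers a host of 399 bp. It had 24.2, 13.6 and 7.36 FPKM in the air-dried libraries and 67.0, 61.3 and 45.7 FPKM in the controls, a log2 change of -2.0 (SE 0.40, limma adjusted p = 0.0260). The host averaged 1.04 ± 0.267 FPKM in air-dried leaves and 2.66 ± 1.42 FPKM in controls (SD, n = 3 each) and did not pass the threshold (limma adjusted p = 0.154).

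A pair of falling loci were neighbours on chromosome 15, on opposite strands. The first (6084086 to 6085237, minus strand) had 3.82, 5.99 and 4.40 FPKM in the air-dried libraries and 9.81, 8.33 and 8.61 FPKM in the controls. The second (6085349 to 6086352, plus strand) had 3.34, 2.81 and 3.46 FPKM in the air-dried libraries and 7.12, 5.67 and 6.32 FPKM in the controls. The log2 changes were -0.81 at each, with SE 0.15 and 0.11 and limma adjusted p of 0.0221 and 0.00763. Their hosts differ. The host of the first had 2.72 ± 0.252 FPKM in air-dried leaves and 5.37 ± 0.632 FPKM in controls (SD, n = 3 each; log2 change -0.77, limma adjusted p = 0.00791). The host of the second had 30.4 ± 7.96 FPKM in air-dried leaves and 67.8 ± 28.4 FPKM in controls and did not pass the threshold (log2 change -1.07, limma adjusted p = 0.119). The 2 loci and the first host fell together in this region of chromosome 15.

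The other 3 falls belonged to loci whose host did not pass the threshold. On chromosome 12 (1300619 to 1301113) the locus had 2.31, 0.957 and 1.69 FPKM in the air-dried libraries and 4.31, 7.08 and 4.01 FPKM in the controls (log2 change -1.21, SE 0.26, limma adjusted p = 0.0339). Its host had 22.8 ± 1.91 FPKM in air-dried leaves and 20.2 ± 1.44 FPKM in controls (SD, n = 3 each). On chromosome 5 (12643473 to 12644117) the locus had 3.27, 2.46 and 3.96 FPKM in the air-dried libraries and 8.31, 5.25 and 7.29 FPKM in the controls (log2 change -0.91, SE 0.20, limma adjusted p = 0.0338, and 0.0585 with the set as a term). It overlaps the end of its host by the assembled extent of the gene record, but no known transcript. On chromosome 1 (24525512 to 24525888), over the start of its host, the locus was listed at 0 in all 3 air-dried libraries and had 3.35, 3.40 and 0.823 FPKM in the controls (limma adjusted p = 0.0302). The log2 changes of these 3 hosts were 0.17, 0.0082 and 0.076. The difference between locus and host did not pass the threshold in any of the 3 (limma adjusted p = 0.0557 on chromosome 12, 0.334 on chromosome 5 and 0.180 on chromosome 1).

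Of the 2 called same-strand loci, POPTR_0003s03130.r1 on chromosome 3 (3506938 to 3507882, plus strand) was listed at 0 in all 3 air-dried libraries and had 99.5, 199 and 389 FPKM in the controls (limma adjusted p = 0.000526, and 0.000927 with the set as a term). It crosses the start of its host (3507511 to 3511450). The host fell to 7.96 ± 0.839 FPKM in air-dried leaves, against 19.7 ± 2.04 FPKM in controls (SD, n = 3 each), with a log2 change of -1.21 (limma adjusted p = 0.00160). Locus and host thus fell together, and no library of the air-dried group listed the locus above 0.

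The second same-strand call was a locus on chromosome 8 (13027837 to 13029297, minus strand) that crosses the end of its host (13028477 to 13031118). The locus overlaps the assembled extent of that gene record but no known transcript. It had 111, 102 and 111 FPKM in the air-dried libraries and 55.3, 65.5 and 78.4 FPKM in the controls, a log2 change of 0.71 (SE 0.14, limma adjusted p = 0.0227). The host rose by much the same amount, to 431 ± 8.35 FPKM in air-dried leaves, against 253 ± 16.2 FPKM in controls (SD, n = 3 each), a log2 change of 0.77 (limma adjusted p = 0.00401). Their changes differed by -0.064 (SE 0.20), with an adjusted p of 0.926.

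The unstranded locus that rose was the shortest of all 559, 201 bp on chromosome 1 (22652903 to 22653103). It had 1131, 473 and 320 FPKM in the air-dried libraries and 47.4, 20.9 and 10.4 FPKM in the controls, a log2 change of 4.60 (SE 0.66, limma adjusted p = 0.00869). Within each group the set A libraries were higher, and the log2 change was 5.10 among set B libraries and 5.12 among those of set A. Its host, a record of 46986 bp (22629252 to 22676237), changed in the other direction, with 1.30 ± 0.0525 FPKM in air-dried leaves and 3.13 ± 0.815 FPKM in controls (SD, n = 3 each; log2 change -0.83, limma adjusted p = 0.0222).

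The other unstranded calls were falls. On chromosome 11 (1224483 to 1224952), inside the host that holds 11 loci, the values were 0.319, 0.226 and 0 FPKM in the air-dried libraries and 2.58, 4.94 and 1.44 FPKM in the controls (log2 change -1.67, SE 0.33, limma adjusted p = 0.0260). On chromosome 8 (622379 to 622782) they were 1.37, 0.904 and 1.05 FPKM in the air-dried libraries and 4.54, 4.24 and 3.11 FPKM in the controls (log2 change -1.23, SE 0.16, limma adjusted p = 0.00572). The groups did not overlap at either locus. The host on chromosome 8 had 37.0 ± 9.50 FPKM in air-dried leaves and 44.8 ± 14.2 FPKM in controls (SD, n = 3 each), which did not pass the threshold (limma adjusted p = 0.633).

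Whether loci move with their hosts was asked over the 360 pairs in which both could be tested. The changes were weakly related in opposite-strand pairs, with a Pearson correlation of 0.25 and a rank correlation of 0.28 over 249 pairs, and 151 of them (60.6%) had changes of the same sign. Over 41 same-strand pairs the values were 0.42 and 0.025, and over 70 unstranded pairs -0.29 and 0.036, so that the Pearson values of these classes were not matched by the ranks. The pairs share libraries and in part reads, and these values are descriptions. For comparison, 889 opposite-strand pairs of known genes gave a Pearson correlation of 0.22, a rank correlation of 0.17 and 54.7% of the same sign.

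In 38 of the 360 pairs of a locus and its host, the host was called. Of these 38 pairs 27 had the same sign (20 of 27 opposite-strand, 5 of 6 same-strand and 2 of 5 unstranded). In 7 of the 38 pairs both partners were called, 6 in the same direction and 1 in opposite directions. The latter is the 201 bp locus on chromosome 1. In the 10 opposite-strand pairs with a rising host the median log2 change was 0.84 for the locus and 0.72 for the host, and in the 17 with a falling host it was -0.34 for the locus and -0.53 for the host. The other classes had few such pairs. In the 2 same-strand pairs with a rising host the medians were 0.22 for the locus and 0.68 for the host, and in the 4 with a falling host -1.18 for the locus and -0.79 for the host. In the 2 unstranded pairs with a rising host the locus median was -0.94 and the host median 1.18, and in the 3 with a falling host they were 0.12 and -0.50, so that locus and host medians had opposite signs in the unstranded class. In 9 further pairs the locus was called and the host was not.

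The difference between the change of a locus and that of its host was tested with limma over all 1992 overlapping pairs of tested loci in the files, of which 3.21% were called (1.71% with the locus higher and 1.51% with it lower). Of the 360 pairs of a locus and its host 4 passed. The locus at the start of the host on chromosome 3 fell more than the host (log2 difference -6.43, SE 0.44, limma adjusted p = 0.0101). This locus was listed at 0 in all 3 air-dried libraries, so the size of the difference depends on the value added to FPKM before the log. Over the alternatives of the closing section it ranged from -9.65 to -6.02. The rise of the 201 bp locus on chromosome 1 differed from the fall of its host by 5.42 (SE 0.77, limma adjusted p = 0.0298). On chromosome 6 a locus inside its host (20240860 to 20242237, plus strand) had 12.5, 13.4 and 12.9 FPKM in the air-dried libraries and 23.9, 15.8 and 25.9 FPKM in the controls. Its host had 53.3, 60.1 and 56.0 FPKM in the air-dried libraries and 35.5, 36.5 and 34.7 FPKM in the controls.

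On chromosome 6 the groups did not overlap at locus or host, and they moved in opposite directions. The log2 change was -0.69 at the locus (limma adjusted p = 0.0619) and 0.65 at the host (limma adjusted p = 0.00340), a difference of -1.34 (SE 0.22, limma adjusted p = 0.0436). The fourth pair is a locus of 84623 bp on chromosome 17 (4146227 to 4230849, minus strand), with 2.65, 2.28 and 3.61 FPKM in the air-dried libraries and 1.63, 0.867 and 1.55 FPKM in the controls (log2 change 0.71, limma adjusted p = 0.0676). Its host of 261318 bp had 7.89 ± 1.55 FPKM in air-dried leaves and 12.7 ± 1.09 FPKM in controls (SD, n = 3 each), and the difference was 1.35 (SE 0.22, limma adjusted p = 0.0416). Once the library set entered the model, the pairs on chromosomes 3 and 1 passed, while those on chromosome 6 (adjusted p = 0.0712) and chromosome 17 (adjusted p = 0.0864) did not. With 1 library left out, the pairs on chromosomes 1, 6 and 17 did not pass in any of the 6 fits, and that on chromosome 3 passed without control 1 or without control 3.

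**Figure D4:**
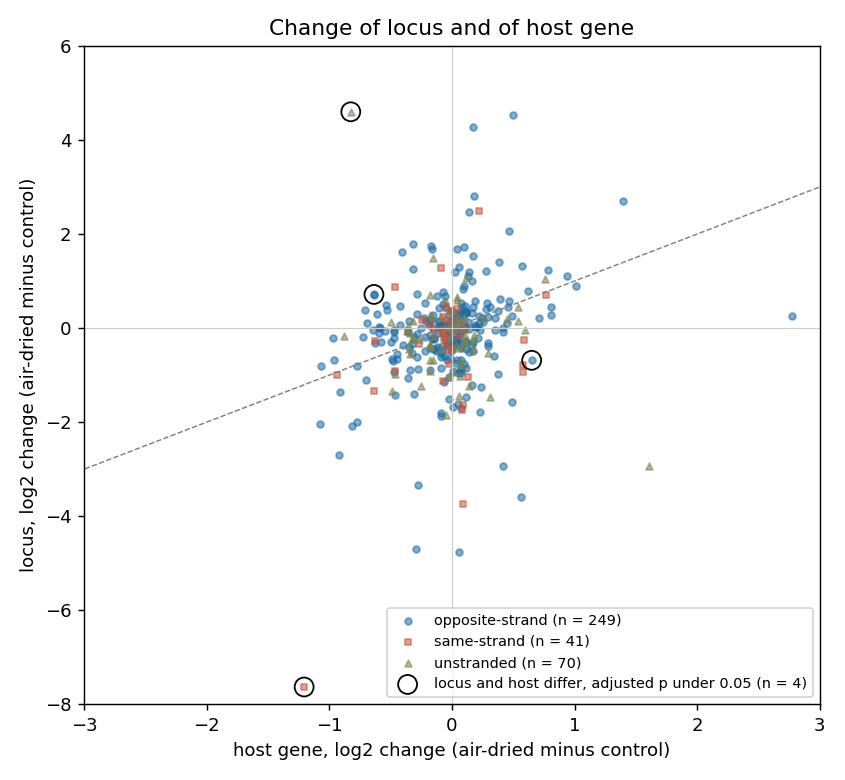
Log2 change (air-dried minus control) of each tested locus (vertical axis) against that of its host (horizontal axis), for the 360 pairs in which both were tested, with colour and shape for the class, a dashed line of equal change and circles around the 4 pairs whose changes differed. The 2 circled pairs in the upper left and lower right quadrants nearest the centre lie on chromosomes 17 and 6, with opposite signs at locus and host.

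Some of the loci were listed at 0 in some libraries and had high values in others. In 49 of the 559 (8.77%) at least 1 library was listed at 0 while another reached at least 10 FPKM: 38 opposite-strand, 5 same-strand and 6 unstranded. The share was 5.54% in unannotated loci overlapping no known gene and 0.141% (54 of 38379) in genes with a known transcript. In 18 of the 49 loci 1 library was listed at 0, in 12 it was 2, in 7 it was 3, in 8 it was 4 and in 4 it was 5.

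The most extreme case was an opposite-strand locus on chromosome 6 (1535261 to 1546977), listed at 0 in the 3 air-dried libraries and in controls 1 and 2, with 19684 FPKM in control 3. A locus inside its host on chromosome 3 (16172458 to 16172943) had 672, 3812 and 575 FPKM in the air-dried libraries and 0, 314 and 386 FPKM in the controls. A locus on chromosome 1 (48083035 to 48179107), named after its values were seen, had 299, 4350 and 3022 FPKM in the air-dried libraries and 1231, 0 and 448 FPKM in the controls. On chromosome 3 the groups did not overlap (log2 change 4.52, SE 2.40, limma adjusted p = 0.298), while on chromosomes 6 and 1 they did. None of the 3 was called.

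Set B minus set A, with the treatment in the same model, gave 26 called loci of 435 (5.98%), 4 higher and 22 lower in set B. Of all tested loci 0.989% were called (0.174% higher and 0.814% lower). The sets came from earlier results of these same libraries, so these calls describe the split and do not test it. Fits with the set as a term carry the same limit. The median log2 difference, set B minus set A, was -0.13 for opposite-strand, -0.22 for same-strand and -0.64 for unstranded loci, against 0.010 for all tested loci. It went with span: in the 43 loci under 300 bp the median was -1.17, and in the 392 of at least 300 bp it was -0.19. Genes with a known transcript under 300 bp had a median of -1.03, so that the difference at short spans was of similar size in annotated genes. At 300 bp or more those genes had a median of 0.016, against -0.19 for the loci and -0.34 for the unstranded class. At these longer spans the loci thus differed from annotated genes.

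**Figure D5:**
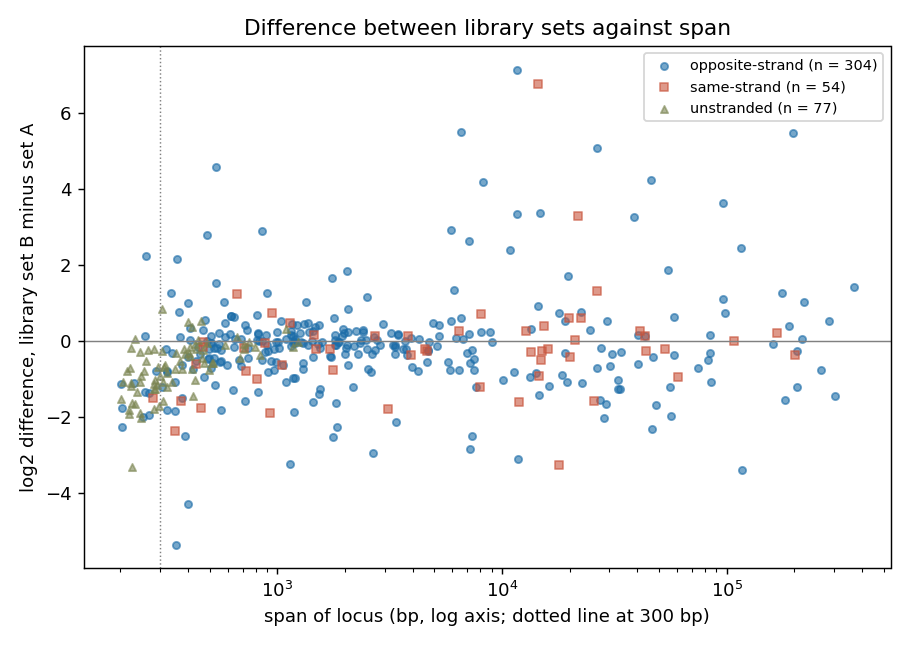
Log2 difference between library sets (set B minus set A) of the 435 tested loci against span in bp on a log axis, with colour and shape for the class and a dotted line at 300 bp. Loci left of the line lie mostly below 0, with a median of -1.17, and loci right of it scatter around a median of -0.19.

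With the set as a term, 17 loci rose and 12 fell in air-dried leaves, together 6.67%, where 12.3% of all tested loci were called (5.41% higher and 6.92% lower). Of these 29 loci 16 were also called without the term and 13 were not. The gain lay partly in the unstranded class, with 5 rises and 3 falls among 77 (10.4%). An unstranded locus on chromosome 6 (24455955 to 24456308) was among them, with 79.3, 51.2 and 59.8 FPKM in the air-dried libraries and 47.4, 46.7 and 42.8 FPKM in the controls. Its log2 change was 0.44 without the term (limma adjusted p = 0.147) and 0.55 with it (adjusted p = 0.0398). The median log2 change of the unstranded loci was 0.014 with the term and -0.17 without it. The change itself was called different between the sets in 6 of the 435 loci, where 0.188% of all tested loci were called. Set A holds 1 air-dried library and set B 1 control, so each of these calls rests on a single library on 1 side, and in 2 of them control 3 alone was above 0.

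The limit of 200 bp on span left out 16 loci that overlap a known gene. The 2 nearest below it averaged 33.8 FPKM (198 bp, chromosome 8, 4014235 to 4014432) and 185 FPKM (192 bp, chromosome 4, 974367 to 974558). The 2 nearest above it were the unstranded 201 bp locus on chromosome 1, which averaged 334 FPKM, and the 202 bp locus on chromosome 17, which averaged 2307 FPKM.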

How the data were processed

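Leaf RNA of 6 libraries was measured as poly(A) RNA-seq with 100 bp paired reads, per the labels' protocols. The submitters' processing notes list TopHat, Cufflinks and FastQC, without versions, and no label names the genome build or strand setting. Deposited values are FPKM per transcript, per the file headers, and depth is unknown. FPKM was summed per locus, filtered at a mean of at least 1 over 6 libraries, and tested as log2(FPKM + 1) with limma 3.58.1 (trend, two-sided, Benjamini-Hochberg, threshold 0.05) in R 4.3.3. Fold changes are on that log2 scale and understate changes of low loci. Differences between locus and host were fitted likewise over all overlapping pairs. Fits were tested on simulated data, with changes planted only in loci above a set level and of low spread between replicates. How well the fits find changes in loci as variable as many of these was not tested. Python 3.11.15 and pandas 2.3.3 made the summaries.

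Named loci per class were the called ones without group overlap (up to 10 by size of change; loci listed at 0 in a group kept apart), the 5 most abundant, the 3 with the highest share of locus plus host, called pairs, and the 2 on each side of the span limit. Members, library sets and rules were chosen with earlier results of these data known. A planned test of summed FPKM was not run, because a sum over members chosen that way gives no fair p. Gene lists and leaf markers could not be applied because the files give no gene names. Reference sequences were not used here.

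Replicate numbers were not taken as pairs (see the closing section). Alternatives were other pseudocounts, filters, scalings, a replicate block, the library set, no trend, other spans and overlaps, and each library left out; a known-transcript overlap and values above 0 in all 6 libraries were added after seeing the data.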

Additional observations from a re-analysis of the deposited data

Results flagged for a closer look

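In 6 opposite-strand loci the change after drying differed between library set B and set A by a test of the difference (limma, Benjamini-Hochberg adjusted over all tested loci, of which 0.188% were called). Set A holds just 1 air-dried library and set B just 1 control, so that a single value carries 1 side of each contrast.

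On chromosome 6 (1535261 to 1546977) the difference was -14.26 (adjusted p = 0.000200), where control 3 had 19684 FPKM and the other 5 libraries were listed at 0. On chromosome 17 (1587171 to 1587430) it was -4.43 (adjusted p = 0.0325), where control 3 had 20.5 FPKM and the other 5 were listed at 0. On chromosome 11 (1253365 to 1517770) it was -4.02 (adjusted p = 0.0423), with 5.86, 0 and 0 FPKM in the air-dried libraries and 0, 0 and 1.36 FPKM in the controls.

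On chromosome 14 (7749740 to 7760583) the difference was -6.42 (adjusted p = 0.0433), with 249, 112 and 176 FPKM in the air-dried libraries and 1.25, 1.79 and 120 FPKM in the controls. On scaffold 108 (38040 to 52879) it was 6.72 (adjusted p = 0.0188), with 0, 89.6 and 121 FPKM in the air-dried libraries and 0 in the 3 controls. On scaffold 287 (7470 to 19154) it was 9.23 (adjusted p = 0.0152), with 0, 197 and 308 FPKM in the air-dried libraries and 165, 185 and 71.1 FPKM in the controls. The part of the library sets and of single libraries in these values was not tested.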

How the results depend on the processing

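The 18 called loci kept their direction in 263 of 263 alternatives run for them and their call in 201, and 6 were called in every one. Because their groups do not overlap, alternatives other than the scalings could not reverse the direction. The main counts were 8 rises and 10 falls. With a mean of at least 5 FPKM, where 266 loci were tested, falls numbered 4 (opposite-strand 3, unstranded 0), and pairs of locus and host whose changes differed numbered 2. Quantile normalization left 0 same-strand rises. With the replicate block 0 pairs were called, and no class count moved past 1.5 times, but the loci changed: 19 loci were called with it, 12 of them among the 18. The 6 lost, on chromosomes 14, 4, 12, 15 (6084086 to 6085237), 1 (24525512 to 24525888) and scaffold 200, had adjusted p from 0.0588 to 0.103; the numbers share no stated origin, and deviations of same-numbered libraries had correlations of 0.187, -0.0961 and 0.292. Adding the library set gave 17 rises (opposite-strand 10, same-strand 2, unstranded 5) and 2 called pairs. At a span of at least 300 bp unstranded rises numbered 0. With an overlap of at least 0.5 of the locus 5 loci fell (opposite-strand 3, same-strand 0). With same-strand taken from any overlapping gene, same-strand rises numbered 2. Requiring a known transcript left 0 same-strand rises and 0 unstranded calls either way. With values above 0 in all 6 libraries same-strand falls numbered 0 and unstranded falls 1. At the limit of 5 FPKM 3 of the opposite-strand falls were no longer tested, while the locus on chromosome 4 was tested and had an adjusted p just above the threshold. The limits on span, overlap, known transcripts and values above 0 removed called loci from the counts by definition. Taking same-strand from any overlapping gene moved the rise on scaffold 46 into that class. The cause of the remaining changes was not tested.

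Without single libraries, which leaves fewer samples, rises ranged from 6 to 9 and falls from 5 (without air-dried 2) to 12; without control 1 falls numbered 6. Opposite-strand rises ranged from 5 to 7 and falls from 3 to 7, same-strand rises from 0 to 1 and falls from 1 to 3, and unstranded rises from 1 to 2 and falls from 1 to 3. Called pairs ranged from 0 to 2. Medians of log2 change ranged from -0.13 to 0.030 (opposite-strand), -0.31 to -0.032 (same-strand) and -0.45 to 0.028 (unstranded). Read numbers are not known, which limits what can be said of loci with low FPKM.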
